A study of Mus musculus with 9 samples.

Results

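Cajal-Retzius and preplate neuron genes were described through a list of 10 mouse genes fixed by Ensembl identifier, of which 9 were among the 12188 genes of the deposited table. The rule behind the list uses gene identity and no level on these arrays, but the list was chosen with earlier results of these data known. The symbols are paired with the identifiers by that list and not by the deposited table. The genes present were Calb2 (ENSMUSG00000003657_at), Lhx1 (ENSMUSG00000018698_at), Lhx5 (ENSMUSG00000029595_at), Ebf1 (ENSMUSG00000057098_at), Ebf2 (ENSMUSG00000022053_at), Ebf3 (ENSMUSG00000010476_at), Nhlh2 (ENSMUSG00000048540_at), Nr4a2 (ENSMUSG00000026826_at) and Trp73 (ENSMUSG00000029026_at). Reln (ENSMUSG00000042453_at), which encodes the secreted glycoprotein reelin, had no row in the table and is not analysed here.

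Tissue came from the dorsal telencephalon, the forebrain wall that becomes the cerebral cortex, of embryos labelled C57Bl6/J at E13.5 (embryonic day). The 5 knockout embryos (replicates 5, 7, 9, 10 and 11) carried a conditional loss of Dicer, the ribonuclease that releases mature microRNAs from their precursors, and all were labelled male. The 4 controls comprised 2 embryos labelled female (controls 1 and 2) and 2 labelled male (controls 3 and 4). Their titles begin with HTZ, so they are not taken to be wild type, and the Cre driver of the conditional allele is not given in the sources used here. Each embryo gave 1 Affymetrix array, and all values below are the authors' log2 expression values. Some embryos were littermates, but which ones is not given, so each test takes the 9 embryos to be independent.

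Cajal-Retzius cells are among the first neurons of the cortex. They settle in the marginal zone under the meninges and secrete reelin, which directs the layering of later neurons. Together with the future subplate neurons they form the preplate, which the arriving cortical plate splits. They come from the edges of the pallium, above all the cortical hem, the septum and the border with the subpallium. None of the listed genes is exclusive to these cells. Ebf1, for example, is also made by young striatal neurons, and Calb2 by neurons of the thalamus and by some interneurons.

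Control 4 stood apart from the other controls. The root mean square difference over all genes was 0.399 to 0.421 log2 units between control 4 and controls 1 to 3, against 0.153 to 0.21 among controls 1 to 3 and 0.196 to 0.346 among the knockouts. Between knockouts and controls it was 0.29 to 0.556, a range that holds the values of control 4. Without knockout 7 the range among the knockouts was the same. At 4 genes of the table, a gap of at least 1.5 log2 units set controls 1 to 3 apart from control 4 and the 5 knockouts, while no gene (0) had such a gap between the sexes as labelled. Control 3, labelled male, thus lay with the labelled females at those 4 genes, and its label could not be checked because sex-linked genes could not be identified. The cell type lists drawn up for the hem, ventral telencephalon, diencephalon, choroid plexus, meninges, blood and vessels could not be matched either (0 genes), as no table paired their symbols with the identifiers. Whether such cells differed between the groups was therefore not tested, and the labelled tissue was not checked against its markers. In a bulk sample, fewer cells of a type and less RNA per cell cannot be told apart.

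Of the 9 genes, 5 rose in the Dicer knockout (Lhx1, Ebf1, Ebf2, Ebf3 and Nhlh2), by 1.43-fold to 2.06-fold. Labelled sex was not in this fit: with sex as a covariate only Lhx1 and Nhlh2 of these 5 stayed called, and with the 7 males alone none did (limma adjusted p = 0.0745 to 0.182). Nr4a2 fell, and Calb2, Lhx5 and Trp73 did not pass the test, a Benjamini-Hochberg adjusted p under 0.05 over all genes (limma, two-sided). Among all genes 24.6% passed, 11% higher and 13.6% lower in the knockout. The median difference of the 9 genes was 0.72 log2 units, against -0.02 over all genes (quartiles -0.19 and 0.13). The genes were listed with earlier results of these data known, so neither the count nor the median was tested. The knockout and control values did not overlap in 4 of the 9 genes, and in 24.1% of all genes. With the array medians subtracted the count was 5, as Ebf1 joined (24.5% of all genes).

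**Figure D1:**
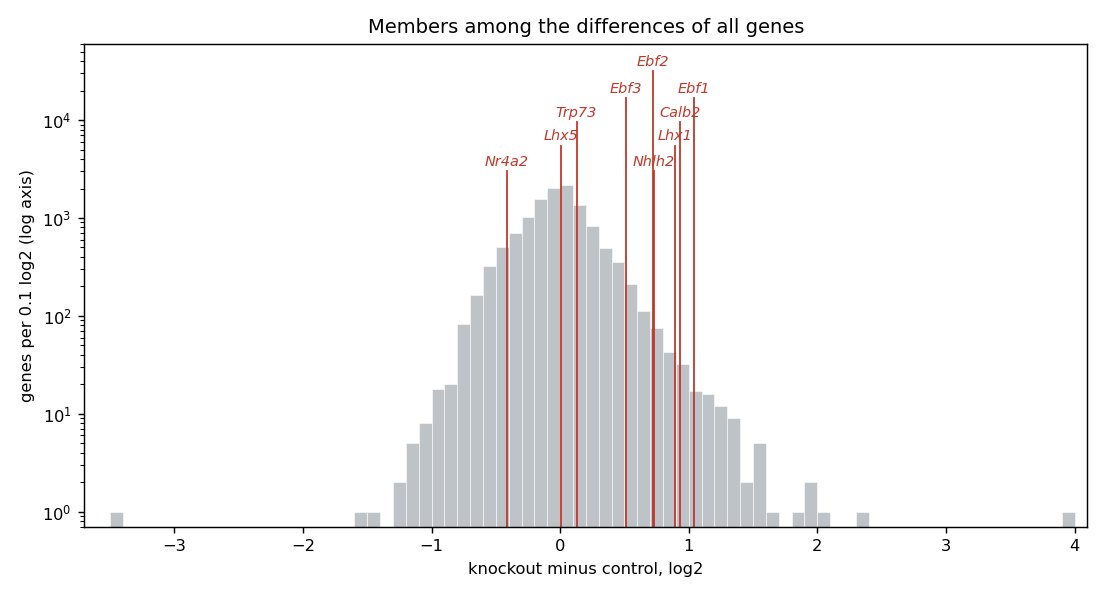
Histogram of the differences between knockout and control means (log2, horizontal axis) of all 12188 genes, in bins of 0.1 on a logarithmic count axis, with a red line at each of the 9 Cajal-Retzius and preplate genes. Calb2 and the 5 genes that rose lie in the upper tail, Lhx5 and Trp73 near the centre and Nr4a2 on the lower side.

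The 4 genes with separated groups are shown with the sequence around a RefSeq gene start (GRCm38.p6), because they include risen genes of 3 transcription factor families and the gene that moved the other way. Each run covers 250 bases before and 50 bases after the start, 5' to 3' on the gene's strand, and the start is one RefSeq gives, not one shown to be used in this tissue. Capitals mark matches to the EBF motif TCCCNNGGG, the E-box CAGCTG and the TATA letters TATAAA, read on both strands. No marked matches overlap, and Lhx1 has none. The Lhx1 run lies at chr11:84525485-84525784 (minus strand), the Ebf3 run at chr7:137314396-137314695 (minus), the Nhlh2 run at chr3:102009895-102010194 (plus) and the Nr4a2 run at chr2:57123954-57124253 (minus).
Lhx1: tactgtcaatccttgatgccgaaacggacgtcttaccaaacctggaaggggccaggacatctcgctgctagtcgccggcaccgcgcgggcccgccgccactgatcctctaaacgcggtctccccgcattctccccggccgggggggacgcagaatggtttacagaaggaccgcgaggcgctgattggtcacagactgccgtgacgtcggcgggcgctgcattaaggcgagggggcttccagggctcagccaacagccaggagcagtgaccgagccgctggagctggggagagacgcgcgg
Ebf3: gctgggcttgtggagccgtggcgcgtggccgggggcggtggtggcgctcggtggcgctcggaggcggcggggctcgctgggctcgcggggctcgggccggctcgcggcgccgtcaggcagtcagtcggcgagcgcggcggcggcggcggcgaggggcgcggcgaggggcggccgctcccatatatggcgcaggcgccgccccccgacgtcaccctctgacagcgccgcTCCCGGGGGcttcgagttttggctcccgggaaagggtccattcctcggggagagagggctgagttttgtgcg
Nhlh2: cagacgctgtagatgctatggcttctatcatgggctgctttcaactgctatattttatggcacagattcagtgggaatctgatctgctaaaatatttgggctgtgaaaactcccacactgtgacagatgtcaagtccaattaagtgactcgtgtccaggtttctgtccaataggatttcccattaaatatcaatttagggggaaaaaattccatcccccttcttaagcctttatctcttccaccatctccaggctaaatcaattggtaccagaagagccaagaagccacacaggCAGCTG
Nr4a2: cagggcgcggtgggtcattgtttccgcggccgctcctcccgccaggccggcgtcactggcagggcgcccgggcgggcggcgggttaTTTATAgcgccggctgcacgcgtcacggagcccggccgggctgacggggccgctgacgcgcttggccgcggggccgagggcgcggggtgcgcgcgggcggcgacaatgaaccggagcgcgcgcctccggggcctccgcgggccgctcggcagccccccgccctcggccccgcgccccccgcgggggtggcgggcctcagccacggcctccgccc

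These 4 runs differ in composition. Lhx1 holds 31 CpG dinucleotides, Ebf3 46 and Nr4a2 52, all above the upper quartile of 20 over 32851 RefSeq promoters of this length. Nhlh2 holds 2, below the lower quartile of 3. The E-box in Nhlh2 starts 44 bases after the gene start, and 16.3% of all promoters hold that motif. The TATA letters in Nr4a2 start 164 bases before the gene start on the opposite strand (TTTATA), with a match in 13.6% of all promoters. Promoters were available for 6 of the 9 genes (8 entries, with a pair each for Ebf1 and Trp73). The EBF motif TCCCNNGGG was found in 1 of the 8 entries, that of Ebf3, and in 6.56% of all promoters. Its stricter form with an A added at the end was in none of the 8 and in 0.904% of all. The LIM homeodomain letters TAATTA and the NR4A motif AAAGGTCA were in none of the 8 either, and in 5.29% and 1.51% of all promoters. These are matches of letters, and no match says only that the letters are not in these windows.

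Lhx1 and Lhx5 encode LIM-homeodomain transcription factors that are made by Cajal-Retzius cells, and in mice Lhx5 is needed for their normal development. Lhx1 stood at 6.81, 6.64, 7.05, 7.64 and 7.37 in knockouts 5, 7, 9, 10 and 11 and at 6.28, 6.26, 5.96 and 6.34 in controls 1 to 4. Every knockout lay above every control, with knockouts 10 and 11 highest and knockout 7 nearest to the controls. The means were 7.10 ± 0.41 (SD, n = 5) and 6.21 ± 0.17 (SD, n = 4). Lhx1 thus rose by 0.89 on the log2 scale (SE 0.19, limma adjusted p = 0.00798), which is 1.86-fold.

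Lhx5 had no such shift. Its knockout values were 5.91, 5.74, 5.82, 5.75 and 5.82 and its control values 5.83, 5.89, 5.68 and 5.82, so the groups overlapped throughout. The difference was 0.00 log2 units (95% interval -0.14 to 0.15, limma adjusted p = 0.969), which leaves out the 0.89 of Lhx1. The value of 5.82 was the same to 9 decimals on 3 arrays (knockouts 9 and 11 and control 4), and 24.4% of all genes held such an exact repeat. No detection call came with the table, so it is not known whether the Lhx5 value stands above background. The same holds for the other members, and 7 of the 9 genes lie among the dimmest 50% of genes. The lowest control values of Lhx1, Ebf1 and Ebf2 were 5.96, 5.81 and 5.94, near those of Lhx5. The difference Lhx1 minus Lhx5 within each array was 0.89 to 1.89 in the knockouts and 0.28 to 0.51 in the controls. In an exact permutation test over arrays (two-sided) this gave p = 0.0159, the smallest that 5 against 4 arrays allow, and 0.0635 after adjustment over 4 pairs of paralogues compared. The pairs were chosen after the values were seen, which the adjustment does not cover. Lhx1 had already separated and Lhx5 hardly varied, so this p is no independent support for a difference between them.

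Ebf1, Ebf2 and Ebf3 belong to the early B-cell factor family of helix-loop-helix transcription factors. They act in newly born neurons of many regions, and Ebf2 is widely used as a marker of Cajal-Retzius cells in mice. All 3 rose in the knockout against all 4 controls, and all 3 lost the call with sex as a covariate (limma adjusted p = 0.06, 0.135 and 0.0563). Ebf1 had 7.38, 6.71, 7.21, 7.17 and 7.71 in knockouts 5, 7, 9, 10 and 11 and 6.02, 6.17, 5.81 and 6.76 in controls 1 to 4. Control 4 lay just above knockout 7 in the deposited values and just below it once array medians were subtracted, when the groups did not overlap. The means of 7.23 ± 0.36 (SD, n = 5) and 6.19 ± 0.40 (SD, n = 4) differed by 1.04 log2 units (SE 0.22, limma adjusted p = 0.00759). At 2.06-fold this was the largest change of the 9 genes against all controls, and 0.492% of all genes rose further.

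Ebf2 had 6.97, 6.83, 6.81, 7.18 and 7.21 in the knockouts, in the same order, and 6.20, 6.05, 5.94 and 6.93 in the controls. Control 4 again lay with the knockouts, above knockouts 7 and 9, while controls 1 to 3 were below all 5. The means of 6.999 ± 0.19 (SD, n = 5) and 6.28 ± 0.45 (SD, n = 4) differed by 0.72 log2 units (SE 0.19, limma adjusted p = 0.0195), which is 1.65-fold. Without control 4 the difference was 0.94 (limma adjusted p = 0.000967). The call was lost without control 1, 2 or 3 (limma adjusted p = 0.0567, 0.0626 and 0.0547), when control 4 was 1 of 3 controls.

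Ebf3 changed less than Ebf1 and Ebf2, and it varied less than either among the controls. It had 7.58, 7.37, 7.57, 7.87 and 7.75 in the knockouts and 6.99, 7.07, 7.17 and 7.23 in the controls. The groups did not overlap, although knockout 7 lay close above control 4. The rise was 0.51 log2 units (SE 0.10, limma adjusted p = 0.00592), which is 1.43-fold, from 7.11 ± 0.11 (SD, n = 4) to 7.63 ± 0.19 (SD, n = 5). The 3 paralogues were not shown to differ in their response: the difference between the changes of Ebf1 and Ebf3 was 0.53 log2 units (exact permutation p = 0.0476, 0.0952 adjusted over the 4 pairs), that of Ebf1 and Ebf2 0.32 (0.0952 and 0.127) and that of Ebf2 and Ebf3 0.21 (0.27 and 0.27).

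Nhlh2 encodes a basic helix-loop-helix factor that appears in neurons as they leave the cell cycle. Its control values were tightly grouped at 9.29, 9.17, 9.27 and 9.24, and control 4 did not stand apart. The knockouts stood at 9.52, 9.74, 10.12, 10.32 and 10.17 in replicates 5, 7, 9, 10 and 11, all above the controls and spread over 0.80 log2 units against 0.12 in the controls. The rise was 0.73 log2 units (SE 0.15) or 1.66-fold, between means of 9.24 ± 0.06 (SD, n = 4) and 9.97 ± 0.33 (SD, n = 5), at a limma adjusted p of 0.00697.

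Nr4a2, an orphan nuclear receptor (Nurr1) known as an early marker of subplate neurons, was the member that fell. It had 7.51, 7.53, 7.28, 7.40 and 7.52 in the knockouts and 7.79, 7.76, 7.96 and 7.95 in the controls. Every knockout was below every control, and neither control 4 nor knockout 7 stood apart. Nr4a2 fell by 0.42 on the log2 scale (SE 0.08) or 1.33-fold, from 7.87 ± 0.10 (SD, n = 4) to 7.45 ± 0.11 (SD, n = 5), with a limma adjusted p of 0.00485.

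Calb2 encodes calretinin, a calcium-binding protein used to stain Cajal-Retzius cells and other neurons. It varied most within the groups. The knockouts had 9.30, 8.86, 8.88, 7.95 and 9.14 in replicates 5, 7, 9, 10 and 11, with knockout 10 lowest. The controls had 8.47 and 8.92 in the embryos labelled female and 7.34 and 6.85 in those labelled male (the label of control 3 being unchecked), so controls 1 and 2 lay inside the knockout range and controls 3 and 4 below it. The means of 8.82 ± 0.52 (SD, n = 5) and 7.89 ± 0.96 (SD, n = 4) differed by 0.93 log2 units (95% interval 0.00 to 1.86), which did not pass the test (limma adjusted p = 0.135). The difference was 0.58 without control 4 and 0.43 with array weights, and did not pass there either (limma adjusted p = 0.28 and 0.33). Other settings widened it, to 1.27 without control 2 and 1.15 without knockout 10, again not called (limma adjusted p = 0.0528 and 0.0769). With sex as a covariate or males only it was 1.73 and passed (limma adjusted p = 0.0219 and 0.0451).

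Trp73 encodes p73, a p53 relative made by Cajal-Retzius cells of the hem and septum. Its controls were close together, at 7.15, 7.06, 7.07 and 7.01. Knockouts 10 and 11 were above them at 7.75 and 7.37, whereas knockouts 5, 7 and 9 had 6.88, 6.97 and 7.03. The knockouts thus lay on both sides of the controls, and the difference of 0.13 log2 units (95% interval -0.23 to 0.49) did not pass the test (limma adjusted p = 0.613).

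**Figure D2:**
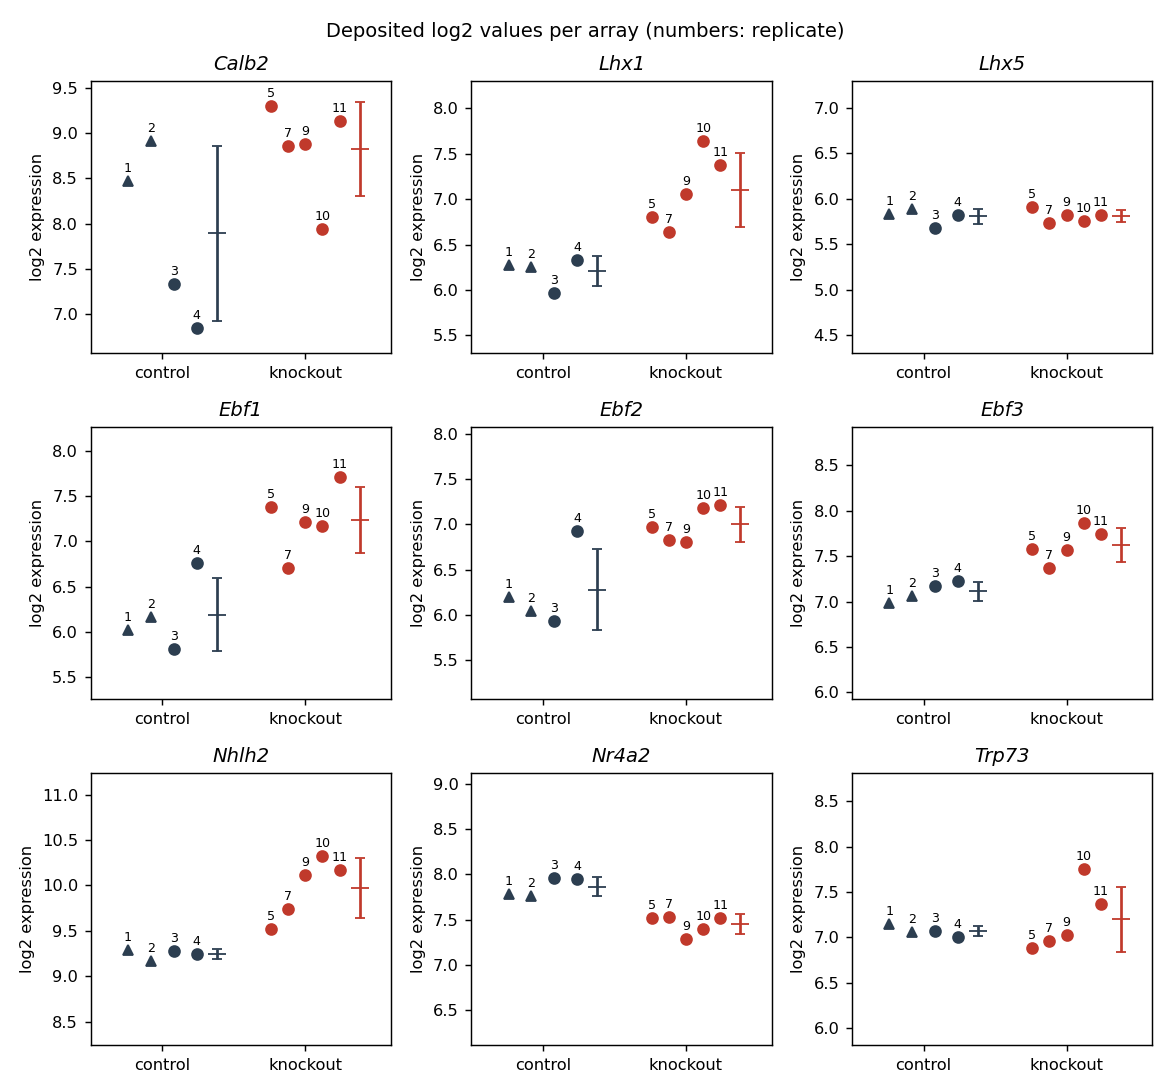
Deposited log2 value of each of the 9 genes on each array, with controls in dark blue, knockouts in red, triangles for embryos labelled female, circles for those labelled male and the replicate number above each point. The bar beside each group is the mean ± SD (n = 4 controls, n = 5 knockouts), and every panel spans 3 log2 units. Lhx1, Ebf3, Nhlh2 and Nr4a2 have groups that do not overlap, control 4 lies with the knockouts for Ebf1 and Ebf2, and controls 3 and 4, both labelled male, are low for Calb2.

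The knockouts differed among themselves in a like order for several of these genes. Knockouts 10 and 11 had the 2 highest knockout values for 4 of the 5 genes that rose (Lhx1, Ebf2, Ebf3 and Nhlh2), and they were also the highest for Trp73. For Ebf1 the highest were knockouts 11 and 5. Knockout 7 was among the 2 lowest knockouts for all 5 genes that rose. Both counts were the same after the array medians, 7.61 to 7.75, were subtracted. Among the controls, control 4 was highest for 4 of the 5 genes that rose, and for 3 after that subtraction. It lay above the lowest knockout for 2 of the 5 (Ebf1 and Ebf2), and for 1 (Ebf2) after it. Calb2 ran otherwise, with knockout 10 lowest at 0.05 log2 units above the control mean and knockout 5 highest at 1.40. These orders were read from the values and have no test.

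**Figure D3:**
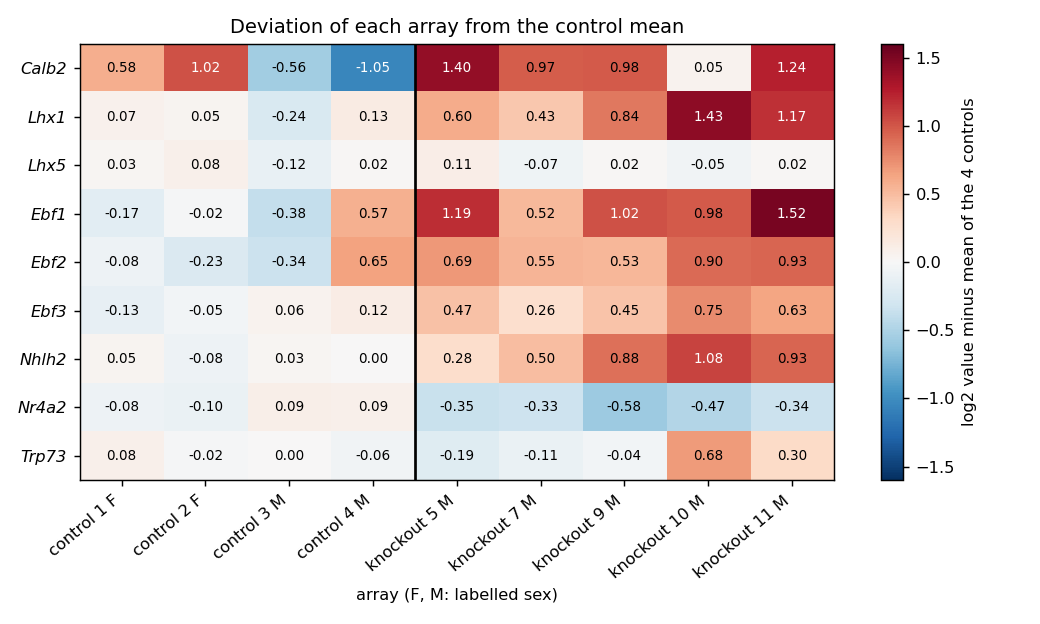
Difference of each array from the mean of the 4 controls (log2, colour and printed value) for the 9 genes, with controls left and knockouts right of the black line and the labelled sex as F or M. Lhx1 reaches 1.43 in knockout 10 and Ebf1 1.52 in knockout 11, while Lhx5 stays within -0.12 and 0.11 on every array.

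Because all knockouts were labelled male, the same genes were compared with the 2 controls labelled male, in a limma fit of 3 groups with a shared spread. The contrast takes the label of control 3 as given, and if that label were wrong, control 4 would be the lone male control. In this contrast 10.5% of all genes passed, and 4 of the 9 genes did (Calb2, Lhx1, Nhlh2 and Nr4a2). Calb2 had the widest difference, at 1.73 log2 units (SE 0.32, limma adjusted p = 0.0219), with means of 7.09 in the control males, 8.69 in the control females and 8.82 in the knockouts. It was thus called against the male controls and not against all 4. This call was lost without knockout 11 and under array weights (limma adjusted p = 0.0515 and 0.111). With 1 control male left, the Calb2 difference was 1.485 without control 4 and 1.975 without control 3. The contrasts share arrays, and the gap between their values was not tested.

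Nr4a2 was lower than in the male controls by a log2 difference of -0.51 (limma adjusted p = 0.0191). Its call was lost under array weights (limma adjusted p = 0.106). Lhx1 was higher by 0.95 and Nhlh2 by 0.72, with limma adjusted p of 0.0425 and 0.0492, close to the threshold. Both calls were lost without knockout 9, 10 or 11 (limma adjusted p = 0.0593 to 0.0854 for Lhx1, 0.0782 to 0.0958 for Nhlh2). Under array weights they were lost as well (limma adjusted p = 0.138 and 0.123). With 1 control male left, the differences of Lhx1 and Nhlh2 were 0.77 and 0.73 without control 3. They were 1.14 and 0.70 without control 4. Ebf1, Ebf2 and Ebf3 had differences of 0.95, 0.57 and 0.43 and did not pass (limma adjusted p = 0.06, 0.135 and 0.0563). The values of Ebf1 and Ebf2 rested on single controls. Ebf2 was at 0.07 without control 3 and at 1.06 without control 4. Ebf1 was at 0.48 and 1.42 in these fits. Lhx5 and Trp73 had 0.06 and 0.16 and did not pass either (limma adjusted p = 0.666 and 0.647). Of the 9 genes, 1 to 6 passed in this contrast when single knockouts were left out. It was 1 without knockout 11 (253 of all 12188 genes) and 2 without knockout 9 or 10 (496 and 425 genes). It was 4 without knockout 5 (1134 genes). Without knockout 7 it was 6 (1384 genes), when Ebf1 and Ebf3 passed as well (limma adjusted p = 0.0343 and 0.0278). Leaving out a control leaves 1 embryo in a control group, so no count is given for those fits.

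**Figure D4:**
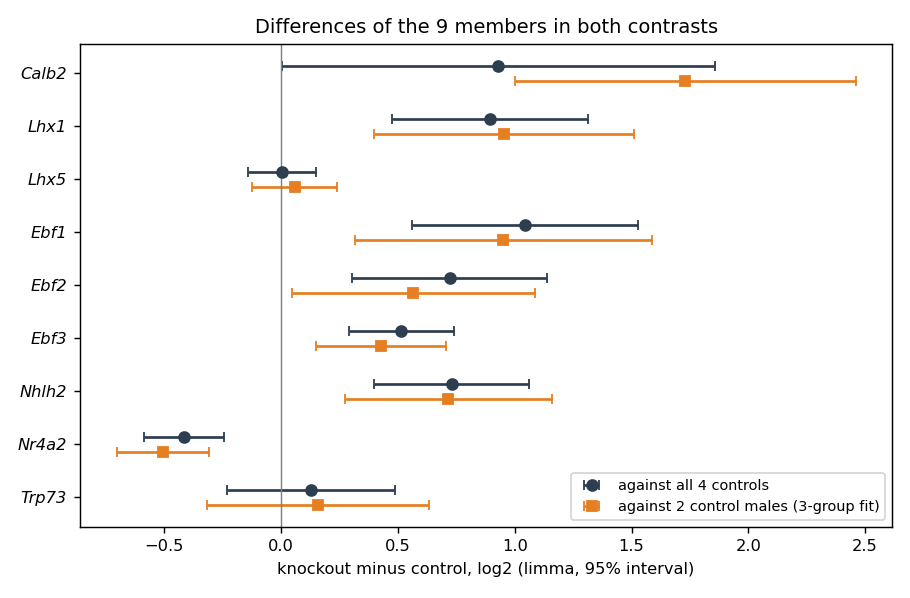
Difference between knockout and control in log2 units with its 95% interval from limma, for each of the 9 genes against all 4 controls (circles) and against the 2 control males (squares). The intervals of Lhx5 and Trp73 include 0 in both contrasts, and Calb2 moves from 0.93 to 1.73.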

How the data were processed

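RNA of 9 embryos was measured on 1-colour Affymetrix arrays. The deposited log2 values, 1 per gene and array, had been processed by the authors with the affy package, per the submitters' processing notes. The sources used here do not give its version, the array type, or how background, normalization and summarization were handled. Values run from 2.72 to 14.1, and background signal tends to shrink changes of dim genes. No read depth exists for arrays, so the number of embryos limits precision.

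The 9 genes were read by identifier. Of 49997 RefSeq genes (GRCm38.p6) none (0) carried an Ensembl identifier, so no other gene could be named. The planned gene lists and the genes most like Reln, which is not in the table, were not used here. All 9 genes were to be named, and were. The genes and lists were chosen with earlier results of these data known.

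limma 3.58.1 (R 4.3.3; lmFit, eBayes) was fitted over all 12188 genes, with no filter and no covariate, and tested on simulated data. Calls are at a Benjamini-Hochberg adjusted p under 0.05. Samples were grouped by the labelled genotype, and by labelled sex in the 3-group fit. Some embryos were littermates, and the p-values set each difference against the spread between embryos taken as independent. Paralogue pairs, chosen after the values were seen, were compared with exact permutation tests (scipy 1.17.1). Alternatives were other scalings, a filter on dim genes, other spread models, sex as a covariate, males only and each array left out. Figures were drawn with matplotlib 3.10.9.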

Additional observations from a re-analysis of the deposited data

How the results depend on the processing

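Against all controls, the members called numbered 6 of 9 with quantile normalization, array medians subtracted, array weights, a robust spread with an intensity trend, or control 4 and knockout 7 both left out, and 5 to 6 with each array left out. With sex as a covariate, which here equals the contrast with male controls, 4 were called, and Ebf1, Ebf2 and Ebf3 lost their calls while Calb2 gained one. With males only 2 were called (Calb2 and Nr4a2), and Lhx1 and Nhlh2 lost theirs (limma adjusted p = 0.0745 and 0.0824). With the dimmest 50% of genes left out, only Calb2 and Nhlh2 were tested, of which 1 (Nhlh2) was called, because the other 7 genes lie in the dimmer part. In that fit 2465 of the 6094 genes tested were called. No called member changed sign in any of these. Over all genes the count was 2997, with 3106 under quantile normalization and 2998 with medians subtracted. It was 3021 with the intensity trend and 3326 with control 4 and knockout 7 both left out. The count was 4562 under array weights, 1285 with sex as a covariate and 324 with males only. With each array left out it was 1976 to 3263, lowest without control 1.

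Against the control males, 5 members were called with quantile normalization or medians subtracted, since Ebf3 gained a call (0.0384 and 0.0348), 2 of 2 tested with the dimmest genes left out, 0 under array weights (29 genes in all, 1285 without weights), 2 with control 4 and knockout 7 both left out (276 genes) and 1 to 6 with each array left out (76 to 2297 genes). Without control 3 or control 4 the lone control male is assumed to vary like the other arrays. The 2 members called without control 4 and knockout 7 were Ebf1 and Ebf2, at differences of 1.554 and 1.105. Neither was called with all 9 arrays. Calb2, Lhx1, Nhlh2 and Nr4a2, which were, all lost their calls in that fit. Their differences there were 1.476, 1.255, 0.7596 and -0.5298. The causes were not tested. No paired analysis was possible because knockouts and controls share no replicate number and litters are not assigned.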
